A study of Caenorhabditis elegans with 40 samples.

Results

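The genes described here encode subunits of the mitochondrial respiratory chain and of the ATP synthase, with several factors that assemble complex IV. They were taken from the table of unique molecular identifier (UMI) counts by gene name: every row named nuo, cox, atp, asb, asg, ucr, sdha, sdhb or sdhd followed by a number, together with gas-1, isp-1, cyc-1, mev-1 and lpd-5. No measured value entered that rule, and it found 32 genes of the 11933 in the table. Of these, 8 belong to complex I, 5 to complex II, 6 to complex III, 4 to the assembly of complex IV and 9 to complex V, the ATP synthase. The filter on low counts left 31 of them among 8110 genes tested. The remaining member, cox-11, held 92 UMIs over all libraries and was not tested.

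The respiratory chain passes electrons from NADH, through complex I, and from succinate, through complex II, to ubiquinone and on through complexes III and IV to oxygen. Complexes I, III and IV move protons across the inner mitochondrial membrane, and complex V uses the returning protons to make ATP. In Caenorhabditis elegans, mutants of several of these genes are known for altered lifespan, stress resistance or development, among them isp-1, nuo-6, gas-1 and mev-1.

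Whole animals were collected at 5 stages, the larval stages L1, L2, L3 and L4 and the young adult (YA), all grown at 25 °C. Males carried dpy-28(y1);him-8(e1489), in which him-8 raises the share of males and the temperature-sensitive dpy-28 allele, in a gene of X-chromosome dosage compensation, kills most XX animals. Hermaphrodites were N2 wild-type, and every difference between the sexes below is also one between these strains, which cannot be told apart. Each of the 10 groups held 4 biological replicates, each a pool of many animals, giving 40 libraries. In such pools, fewer cells of a type and less RNA per cell cannot be told apart.

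Library totals ran from 1724365 to 14129759 UMIs, with a median of 5616412 and the smallest in the L1 males. Levels are given below as counts scaled to a common library size (CPM) after TMM scaling, a correction for differences in library composition. The YA hermaphrodite libraries stood apart from each other. The 15 oocyte and eggshell markers summed to 5324 CPM in replicate 1, 15360 in replicate 2, 15420 in replicate 3 and 7411 in replicate 4. The 37 sperm markers ran the other way, at 4218, 1180, 1602 and 4119 CPM in replicates 1 to 4. The split was not limited to gametes: body wall muscle markers summed to 5288, 13310, 14560 and 5459 CPM in these libraries, intestine markers to 5586, 16120, 16020 and 7024, neuron markers to 404, 1063, 1105 and 448, and germline markers of both sexes to 893, 3993, 4123 and 1349. The counts of members called at YA, and the YA values of the members called, are therefore also given without replicates 1 and 4 and without replicates 2 and 3. Shares, sums and counts without overlap are given with all 4. All CPM values, the marker sums included, depend on the scaling. The members' share of the UMIs ordered these 4 libraries otherwise, as given below. In the L1 groups, replicate 1 of either sex held the highest summed level of the members.

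All members together took 1.60% ± 0.139 of the UMIs in L1 hermaphrodites and 1.27% ± 0.0864 in L1 males (SD, n = 4). The share was 1.26% and 1.19% in hermaphrodites and males at L2, 1.19% and 1.14% at L3, and 1.12% and 0.926% at L4. At YA the order of the sexes in this share turned, with 0.781% ± 0.0675 in hermaphrodites and 1.06% ± 0.0492 in males. These shares are compositions of the UMIs in a library and were not tested. In CPM, the members summed to 8637, 11530 and 12210 at L1, L2 and L3 in males. In hermaphrodites they summed to 11280, 12250 and 13640. From L1 to L3 the sum thus rose while the share fell. At YA the sums were 7616, 13060, 13120 and 8400 CPM in hermaphrodite replicates 1 to 4 and 10900 to 11860 in males. Hermaphrodite replicates 2 and 3 thus lay above every male library in CPM. Their shares of the UMIs, 0.777% and 0.700%, were the lowest of the 4. All 4 hermaphrodite shares, up to 0.865%, lay below every male share, at 1.015% to 1.126%. The order thus depended on the TMM scaling.

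The complexes did not follow 1 course. The summed level of complex III was 1193, 1705 and 1677 CPM at L1, L2 and L3 in males and 1482, 1781 and 1951 CPM in hermaphrodites. These sums are given as values, with no test. At L4 it stood at 1201 ± 62.1 CPM in males but at 1966 ± 262 in hermaphrodites, and no L4 male library, at 1124 to 1266 CPM, reached the lowest L4 hermaphrodite library, at 1635. Over the 5 groups of members and 5 stages, 10 of 25 sums did not overlap between the sexes. Hermaphrodites were higher in each of the 10. Of 30 sums of marker lists over the same stages, hermaphrodites lay wholly above in 8 and males in 10. No such count was made over all genes, so the 10 of 25 has no background. It also depends on the scaling. At L3 all members together were apart in CPM, at 12090 to 12310 in males and 12900 to 14720 in hermaphrodites. Their shares of the UMIs at L3 overlapped, at 1.09% to 1.17% and 1.15% to 1.23%. Complex I was apart at L1 (702 to 890 CPM in males, 902 to 1405 in hermaphrodites), at L3 (807 to 964 and 982 to 1120) and at L4 (912 to 1011 and 1190 to 1240). Complex III was also apart at L3 (1652 to 1726 and 1804 to 2088), as was complex V (8296 to 8370 and 8674 to 10310). Complex II overlapped between the sexes at L4, at 940 to 1126 CPM in males and 992 to 1193 in hermaphrodites. The 4 assembly genes of complex IV were apart at each stage from L2 to YA, with 90.1 to 103.8 CPM in males and 136 to 170 in hermaphrodites at L4. They summed to 78.8 ± 10.7 CPM in YA males and 324 ± 116 in YA hermaphrodites, the latter from 204 to 428 CPM. This sum is mostly cox-15 and cox-17, as group means of cox-10 and cox-11 reached at most 2.36 and 1.05 CPM. Complex V, the most abundant group, ran from 5601 CPM in L1 males to 9284 in L3 hermaphrodites.

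**Figure D1:**
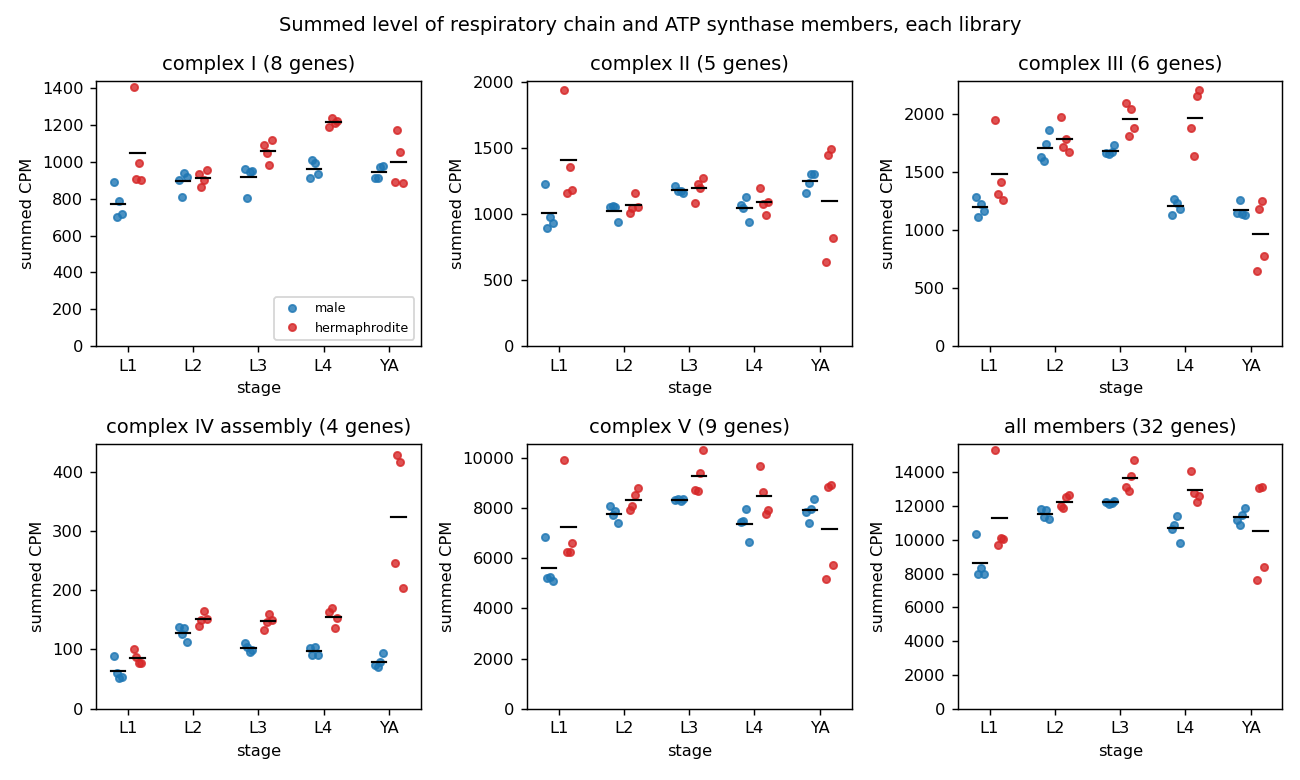
Summed CPM of the members of each complex (y axis) by stage (x axis) in each of the 40 libraries, males in blue and hermaphrodites in red, with a black bar at the mean of 4 libraries. The libraries of the sexes did not overlap for complex I at L1, L3 and L4, complex III at L3 and L4, the assembly of complex IV from L2 to YA and complex V at L3, and the YA hermaphrodite libraries ran from 5193 to 8913 CPM for complex V.

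Before the comparison of the sexes, the YA hermaphrodite libraries were described member by member, because the summed levels hide what the single genes did. The highest library exceeded the lowest by a median of 3.27-fold over 30 members in YA hermaphrodites, against 1.25-fold over 31 members in YA males. In the other 8 groups that median lay between 1.23-fold, in L3 males, and 1.91-fold, in L1 hermaphrodites. In CPM, replicates 2 and 3 both lay above replicates 1 and 4 for 14 of the 31 tested members and below both for 13. The TMM scaling enters these counts.

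Subunits of a single complex went opposite ways between these libraries. In complex V, atp-2, which encodes the catalytic beta subunit, read 1304, 4360, 4498 and 1797 CPM in replicates 1 to 4. In the same 4 libraries atp-4, which encodes a peripheral stalk subunit (the coupling factor 6 homolog), read 394, 42.9, 39.6 and 421 CPM. Replicates 2 and 3 were thus high for the former and low for the latter. In complex II, sdhb-1, the iron-sulfur subunit, read 174, 923, 980 and 297 CPM, whereas sdhd-1, a membrane anchor, read 236, 37.9, 44.5 and 259. The other membrane anchor gene, mev-1, encoding cytochrome b560, read 105, 21.9, 20.6 and 105 CPM.

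Transcript length moved with this split. Over the 30 tested members with a transcript in the annotation, the level of each YA hermaphrodite library relative to the YA male mean had a Spearman correlation with the longest transcript's length of -0.50 in replicate 1, 0.40 in replicate 2, 0.39 in replicate 3 and -0.30 in replicate 4. Over the 7944 tested genes with a length, the same correlations were -0.10, 0.24, 0.24 and -0.01. These are descriptions across genes within a library. The longest annotated transcript had 542 bases for atp-4, 604 for sdhd-1 and 728 for mev-1, against 1929 for atp-2 and 2400 for sdha-1. The members higher in replicates 2 and 3 had 321 to 2444 bases, with a median of 1435, and the 12 with a length among those lower there had 476 to 1709, with a median of 939, so the lengths overlapped. Short members such as cox-17 (321 bases), asg-2 (497) and atp-5 (791) were higher in replicates 2 and 3, and long ones such as ucr-1 (1709), gas-1 (1688) and ucr-2.3 (1351) were lower. The part of transcript length, and of the 6 marker sums that moved with the same libraries, in these differences was not tested.

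**Figure D2:**
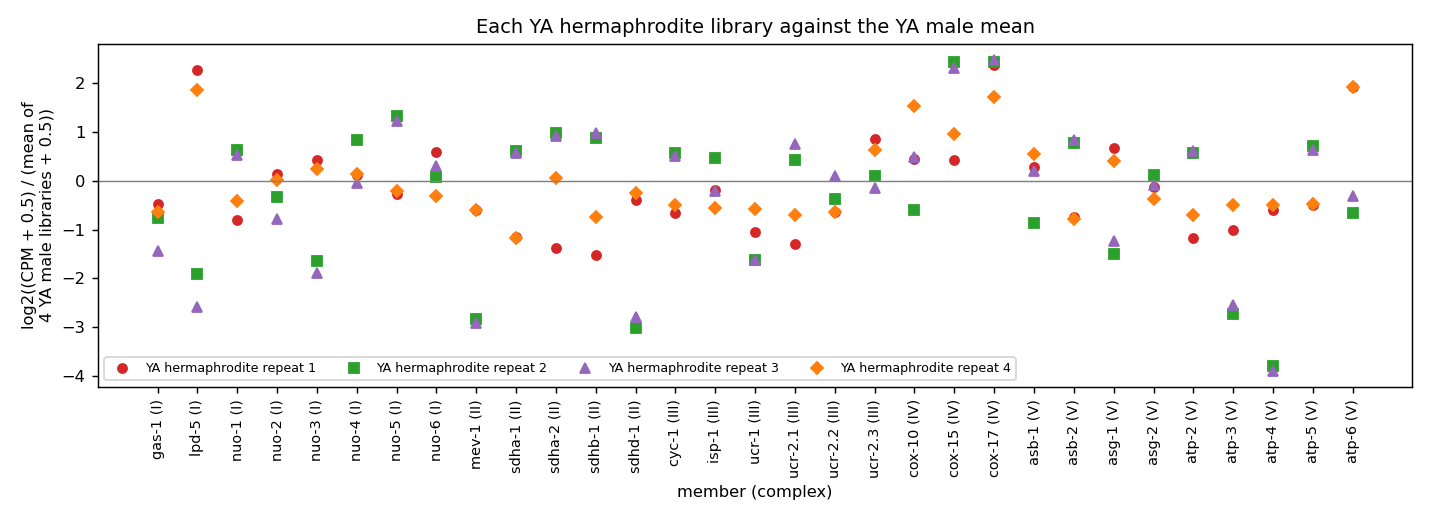
Level of each of the 31 tested members in each YA hermaphrodite library (4 symbols, with replicates named repeats in the legend) as the log2 ratio of CPM + 0.5 to the mean of the 4 YA male libraries + 0.5 (y axis), members ordered by complex (x axis). Replicates 2 and 3 sat together, above replicates 1 and 4 for 14 members and below them for 13, with atp-4, sdhd-1 and mev-1 among the lowest.

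The first comparison asked which members differed between the sexes at each stage. A member was called when its Benjamini-Hochberg adjusted p over all genes was at most 0.05, its fold change was at least 2-fold (a log2 fold change of at least 1) and its mean normalized count was at least 5. Log2 fold changes are male minus hermaphrodite, so that negative values mean a higher level in hermaphrodites.

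From L1 to L3 no member passed the 3 thresholds in either direction by edgeR or by DESeq2. At an unadjusted p under 0.05, 10, 1 and 3 members were lower in males at L1, L2 and L3, and 0 were higher. The share of all genes at this unadjusted p is not given, here or below, so such counts have no background. The shares that follow are for the 3 thresholds. The background, the share of all 8110 genes called, was 3.3% for genes higher in males and 2.92% for genes higher in hermaphrodites at L1, 0.481% and 0.21% at L2, and 7.62% and 0.925% at L3. At an adjusted p of at most 0.05 with no limit on the fold, 5 of 31 members were higher in L1 hermaphrodites (16.1%, background 5.87%) and 0 in L1 males (background 4.28%). They were asg-2 (ATP synthase g subunit), cox-17 (copper chaperone of complex IV), cyc-1 (cytochrome c1), atp-5 (the ATP synthase d subunit) and nuo-4 (a complex I subunit). Their log2 fold changes lay between -0.88 and -0.58.

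The clearest of these was asg-2, at 349.5, 318, 305 and 337 CPM in the L1 males and 614, 670.5, 489 and 516.5 CPM in the L1 hermaphrodites, replicates 1 to 4. The groups did not overlap, and the log2 fold change was -0.81 ± 0.153 (SE, edgeR adjusted p = 0.000394). In these L1 libraries the same-numbered replicates of the sexes deviated together, least so for replicate 2 (correlation over genes of 0.136). With the replicate as a block, 3 members in place of 5 passed this rule. The count was not stable: it was 1 with counts thinned to the smallest library, 2 with DESeq2 size factors or upper-quartile scaling, and 14 and 13 without YA hermaphrodite replicates 1 and 4 or 2 and 3. Leaving out single libraries gave 2 to 8. The share of all genes under this rule is not given for these other fits, so their counts have no background. At L2 and L3 the same rule called 0 members in either direction (2 higher in L3 hermaphrodites without either pair of YA hermaphrodite libraries), against backgrounds of 0.543% (males higher) and 0.271% (hermaphrodites higher) at L2 and 9.24% and 1.63% at L3.

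Across the early stages most members lay slightly lower in males without passing the test. The median log2 fold change of the members was -0.47 at L1, -0.10 at L2 and -0.18 at L3, with 28, 25 and 28 of 31 members below 0, against medians over all genes tested of -0.14, 0.00 and 0.03. With DESeq2 size factors the median of all genes moved to -0.04 at L1, 0.21 at L4 and 0.18 at YA, and that of the members to -0.36 at L1. Counted by library, hermaphrodites lay wholly above males, with no overlap of 4 and 4 libraries, for 7 members at L1 (background 9.47%), 2 at L2 (5.61%) and 9 at L3 (9.06%). Males lay wholly above hermaphrodites for 0 members at each of these stages, against backgrounds of 3.64%, 5.71% and 16.4%. Of 12 body wall muscle markers, unc-54 alone read 22780 to 35410 CPM in L1 males and 345 to 1550 in L1 hermaphrodites. The other 11 summed to 7679 to 13580 and 5472 to 12950 CPM, and 0 of the 11 lay wholly above in L1 males. Neuron markers were wholly higher in L1 hermaphrodites, at 1899 to 3354 CPM against 1326 to 1562 in males, and germline markers of both sexes wholly lower, at 14.3 to 31.8 against 52.3 to 76.8. At L3 intestine markers were wholly higher in hermaphrodites, at 8996 to 11190 CPM against 7146 to 7550, as were germline markers, at 256 to 343 against 198 to 227, and sperm markers were wholly lower, at 82.2 to 127 against 533 to 641. The part of these markers in the members' values was not tested.

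At L4, 6 of 31 members were called higher in hermaphrodites (19.4%, background 14.1%) and 0 higher in males (background 13.8%), where 0 also passed an unadjusted p under 0.05 or the DESeq2 test. With DESeq2 size factors the background split moved to 17.04% higher in males and 11.3% higher in hermaphrodites. The 6 belonged to complexes I and III: gas-1, nuo-4 and lpd-5 of complex I and isp-1, ucr-1 and ucr-2.3 of complex III. With no limit on the fold, 10 members were higher in L4 hermaphrodites (background 20.4%) and 0 in L4 males (background 20.8%). The 4 added were ucr-2.2, cox-17, cox-15 and sdha-2. Leaving out single libraries gave 6 to 10, the lowest without L4 male replicate 2. Without overlap of the libraries, 11 members were higher in hermaphrodites (background 20.7%) and 1 in males (background 23.7%).

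In complex I, gas-1 encodes a subunit of the complex (WBGene00001520, WBcel235 chromosome X, 15586786 to 15590397, minus strand). It read 96.3, 106, 103.8 and 90.1 CPM in the L4 males and 234, 186, 254 and 259 CPM in the L4 hermaphrodites, replicates 1 to 4. Every hermaphrodite library lay above every male library, at a log2 fold change of -1.24 ± 0.189 (SE, adjusted p = 2.52e-06). For nuo-4 (chromosome III, 7156026 to 7158809, minus strand) the L4 males read 18.5, 24.0, 24.5 and 21.2 CPM and the hermaphrodites 65.04, 48.6, 82.0 and 96.8. These groups did not overlap either, and the log2 fold change was -1.73 ± 0.259 (adjusted p = 1.78e-06).

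In complex III, ucr-1 encodes a core subunit (chromosome III, 5592135 to 5594401, plus strand). The L4 males read 325, 353, 333 and 301 CPM and the L4 hermaphrodites 603, 526.5, 789 and 797.5. The libraries of the sexes were fully apart, at a log2 fold change of -1.05 ± 0.208 (adjusted p = 0.000124). This lies close to the fold threshold, and without L4 hermaphrodite replicate 3 or 4 it was -0.97 or -0.96. The ucr-2.3 gene, 1 of 3 genes for the other core subunit (chromosome III, 879860 to 881458, plus strand), read 6.90, 6.42, 5.83 and 8.64 CPM in males and 16.1, 14.3, 40.3 and 37.6 in hermaphrodites. All 4 hermaphrodite libraries were higher, with replicates 3 and 4 above the others, and the log2 fold change was -1.98 ± 0.366 (adjusted p = 4.79e-05).

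The isp-1 gene encodes the Rieske iron-sulfur protein of complex III (chromosome IV, 8134016 to 8136055, minus strand). It averaged 184 ± 4.63 CPM in L4 males and 503 ± 168 in L4 hermaphrodites (SD, n = 4), at a log2 fold change of -1.45 ± 0.335 (adjusted p = 0.000746). The call of lpd-5, a complex I accessory subunit, rested on few counts. It averaged 6.64 CPM in males and 21.98 ± 19.4 in hermaphrodites, where the libraries read 4.01, 7.16, 43.2 and 33.5 CPM and overlapped the males. Its log2 fold change of -1.77 ± 0.719 (adjusted p = 0.0457) lost the call when any of 15 single libraries was left out, and was -1.22 without L4 hermaphrodite replicate 3.

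**Figure D3:**
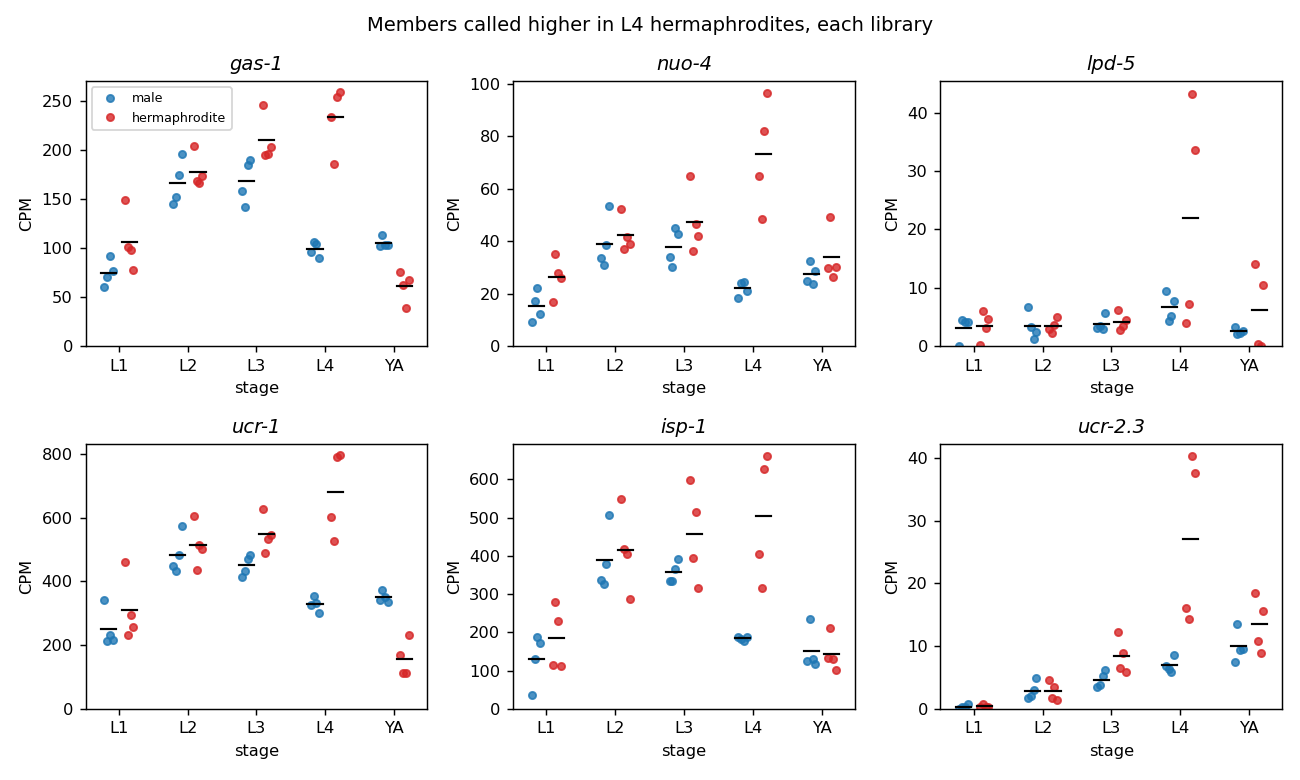
CPM (y axis) of the 6 members called higher in L4 hermaphrodites, by stage (x axis), in each library, males in blue and hermaphrodites in red, black bars marking means of 4 libraries. At L4 the libraries of the sexes did not overlap for gas-1, nuo-4, ucr-1, isp-1 and ucr-2.3 and overlapped for lpd-5, and hermaphrodite replicates 3 and 4 lay above replicates 1 and 2 for all 6 genes.

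The order of the replicates was shared by these 6 genes in some groups and not in others. In the L4 hermaphrodites replicates 3 and 4 lay above replicates 1 and 2 for 6 of 6 genes. In L3 hermaphrodites replicate 1 was the highest library for 6 of 6, and in L3 males replicate 4 was for 5 of 6. In L2, hermaphrodite replicate 1 and male replicate 4 were each the highest for 5 of 6, as was replicate 2 in YA males. No single library led more than 4 of 6 genes in L1 hermaphrodites, 3 in L1 males and in YA hermaphrodites, and 2 in L4 males. The 6 were chosen by their L4 call, and this shared order was noticed in the same libraries, so it is a description. Intestine markers summed to 9070 to 12130 CPM in L4 hermaphrodites and 6946 to 8037 in L4 males, and germline markers of both sexes to 612 to 665 and 394 to 441. Of the body wall muscle markers, unc-54 read 198 to 405 CPM in L4 hermaphrodites and 13620 to 16630 in L4 males. The other 11 summed to 7020 to 8238 and 12570 to 14640 CPM, and 9 of them lay wholly above in males. Neuron markers were also wholly higher in males, at 726 to 872 CPM against 603 to 692. Neither sum of oocyte markers nor of sperm markers overlapped between the sexes at L4, at 1089 to 1243 against 250 to 322 CPM and 2219 to 3085 against 4905 to 7393 CPM in hermaphrodites and males. The part of these markers in the L4 differences was not tested.

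At YA, 5 of 31 members were called higher in males (16.1%, background 22.3%) and 3 higher in hermaphrodites (9.68%, background 21.8%). Without YA hermaphrodite replicates 1 and 4 the counts were 8 and 3 members, against 26.4% and 20.2% of all genes. Without replicates 2 and 3 they were 7 and 3 of 32 members tested, against 24.6% and 11.4%. With each stage fitted alone, 1 member was called higher in males. With no limit on the fold, 6 members were higher in males (background 27.8%) and 4 in hermaphrodites (background 27.6%). Of these counts, that in hermaphrodites was 12 without hermaphrodite replicates 1 and 4, that in males was 18 without replicates 2 and 3, and with each stage fitted alone they were 1 in males and 2 in hermaphrodites. Leaving out single libraries gave 6 to 8 in males and 2 to 5 in hermaphrodites, the lowest without L4 male replicate 2. The count in hermaphrodites was also 2 with DESeq2 size factors, the DESeq2 test, no filter on low counts or the replicate block. The share of all genes with no limit on the fold is not given for any of these other fits. Their counts therefore have no background. Without overlap of the libraries, 6 were higher in males (background 23.9%) and 2 in hermaphrodites (background 17.3%). The shares of members called were below those of all genes in each of these counts with all libraries.

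The call held with either pair of YA hermaphrodite libraries left out for 3 members: ucr-1 and atp-3, higher in males, and cox-17, higher in hermaphrodites. With each stage fitted alone, ucr-1 and cox-17 were still called and atp-3 was not (1.29, adjusted p = 0.0601). For ucr-1 the YA males read 340.5, 371, 352 and 336 CPM and the YA hermaphrodites 168, 112.9, 112.7 and 233 CPM. The sexes were fully apart, in the opposite direction to L4, at a log2 fold change of 1.16 ± 0.21 (SE, adjusted p = 1.08e-05). It was 1.64 without hermaphrodite replicates 1 and 4 and 1.09 without replicates 2 and 3.

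For atp-3, which encodes the oligomycin sensitivity subunit of the ATP synthase stalk, the YA males read 1133, 1053, 1158 and 1290 CPM and the hermaphrodites 578, 174, 197.5 and 818. Every male library was higher, and the log2 fold change was 1.39 ± 0.267 (adjusted p = 2.71e-05). It was 2.65 without hermaphrodite replicates 1 and 4 and 1.02 without replicates 2 and 3. For cox-17 (chromosome III, 190986 to 191981, plus strand), which carries copper to complex IV, the YA males read 33.7, 27.2, 29.4 and 50.02 CPM and the hermaphrodites 184, 192, 199 and 116. All 4 hermaphrodite libraries were above all males, at a log2 fold change of -2.299 ± 0.226 (adjusted p = 5.64e-11). Either pair left out gave -2.47 or -1.81.

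The other 5 calls at YA were each lost in 1 of these 2 fits. The YA males read 158, 156, 157 and 161 CPM for mev-1, above each of the hermaphrodite values given before, at a log2 fold change of 1.33 ± 0.302 (adjusted p = 0.000278). It was 2.90 without replicates 1 and 4 and 0.88 without replicates 2 and 3, the latter below the fold threshold. For atp-4, the males read 602, 511, 575 and 702 CPM, and the log2 fold change of 1.41 ± 0.388 (adjusted p = 0.0021) was 3.86 and 0.84 in the same 2 fits. That of sdhd-1, 1.098 ± 0.319 (adjusted p = 0.00353), was 2.91 and 0.61.

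The complex IV assembly gene cox-15, which acts in heme A synthesis, read 38.6, 41.7, 47.8 and 43.3 CPM in YA males and 58.1, 235.4, 217 and 84.1 in hermaphrodites. Its log2 fold change of -1.79 ± 0.268 (adjusted p = 4.04e-07) was -2.39 without replicates 1 and 4 and -0.44 without replicates 2 and 3, where the adjusted p was 0.0789. The single member named like a mitochondrial genome product, atp-6 (ATP synthase subunit a), read 16.9, 14.2, 14.4 and 21.8 CPM in males and 65.5, 10.5, 13.5 and 65.1 in hermaphrodites. Its log2 fold change of -1.197 ± 0.458 (adjusted p = 0.0252) turned to 0.49 (adjusted p = 0.402) without replicates 1 and 4 and was -1.67 (adjusted p = 0.000892) without replicates 2 and 3.

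**Figure D4:**
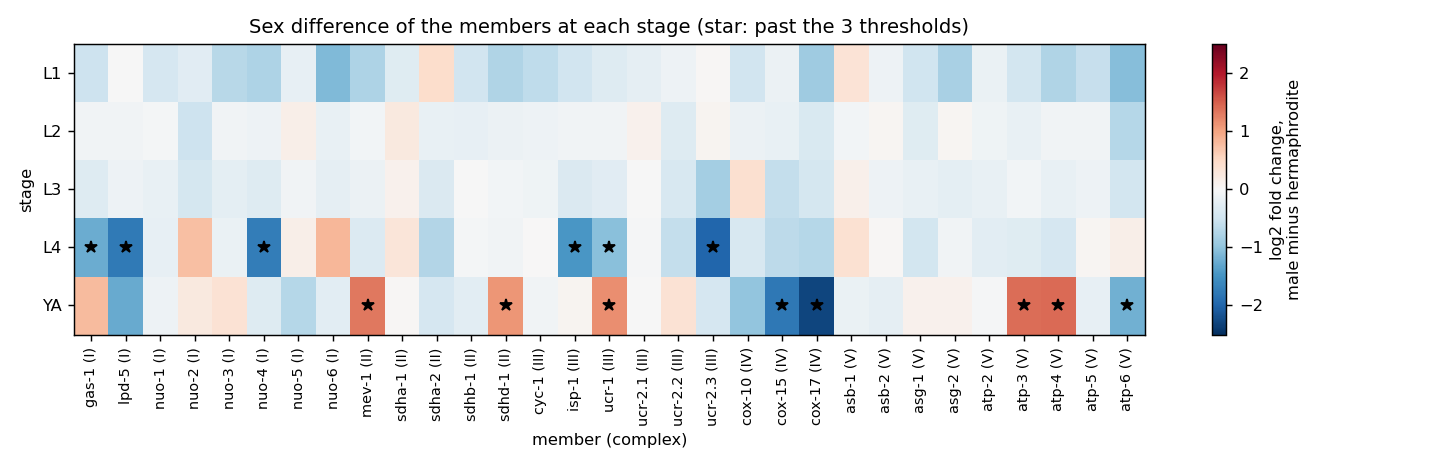
Log2 fold change, male minus hermaphrodite (colour, red for higher in males), of the 31 tested members (x axis, complex in parentheses) at each stage (y axis), with a star where the 3 thresholds were passed. Stars appear at L4 for 6 members, all higher in hermaphrodites, and at YA for 5 members higher in males and 3 higher in hermaphrodites.

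The sex difference itself changed with stage for 13 of 31 members (41.9%, background 51.3%; F test of the sex-by-stage interaction, adjusted p at most 0.05). The smallest adjusted p-values belonged to gas-1 (2.33e-06), ucr-1 (2.93e-06) and cox-17 (1.05e-05). Both gas-1 and ucr-1 were higher in hermaphrodites at L4 and in males at YA. At YA gas-1 had a log2 fold change of 0.79 ± 0.19 (adjusted p = 0.000486), below the fold threshold, from 105 ± 5.39 CPM in males and 60.8 ± 15.8 in hermaphrodites. Without hermaphrodite replicates 1 and 4 it was 1.07 (adjusted p = 4.58e-05) and passed the fold threshold, and without replicates 2 and 3 it was 0.86. The interaction count was 23 without YA hermaphrodite replicates 1 and 4 and 22 without replicates 2 and 3, against 60.2% and 49.7% of all genes.

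Of the 31 members tested, 6 lie on the X chromosome: asb-2, asg-2, gas-1, sdha-1, ucr-2.1 and ucr-2.2. Their median log2 fold change, male minus hermaphrodite, was -0.26, 0.05, -0.18, -0.05 and 0.07 from L1 to YA. The 24 autosomal members had medians of -0.47, -0.11, -0.18, -0.33 and -0.14. Over all tested X-linked genes, 1072 in number, the median was 0.44 at YA and within 0.16 of 0 at the earlier stages.

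The second comparison followed the members through development within each sex. The F test over the 5 stages called 17 of 31 members in males (54.8%, background 69.8%) and 23 in hermaphrodites (74.2%, background 82.8%). Of these, 16 were called in both sexes. The 7 called in neither were nuo-1, nuo-2 and nuo-6 of complex I, sdhb-1 of complex II, cyc-1 of complex III and asb-2 and atp-5 of complex V. Among them, nuo-6 had 0 to 27 UMIs in a library, at group means of 0.548 to 1.94 CPM. Moderate differences were thus not detectable at this depth. For others the YA hermaphrodite libraries disagreed. From L4 to YA in hermaphrodites, the log2 fold change of sdhb-1 was 1.16 without YA replicates 1 and 4 and -0.84 without replicates 2 and 3. In the same 2 fits it was 0.79 and -0.77 for asb-2, 0.72 and -0.43 for atp-5 and 0.76 and -0.34 for cyc-1. Having no call thus does not show a flat course.

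The step from L1 to L2 was the only step at which more than 1 member rose in males. There 7 members were called as rising (22.6%, background 10.9%) and 0 as falling (background 8.13%). In hermaphrodites 5 rose at this step (16.1%, background 14.7%) and 0 fell (background 15.4%). All 5 of the latter, ucr-2.3, sdha-2, cox-15, asg-1 and isp-1, were also among the 7 in males, with gas-1 and nuo-4 added. Step values are later minus earlier stage.

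In males the smallest adjusted p-values at this step belonged to gas-1, nuo-4 and asg-1. The level of gas-1 rose from 74.5 ± 13.3 to 166 ± 23.3 CPM (log2 fold change 1.16 ± 0.189, adjusted p = 1.19e-05). That of nuo-4 rose from 15.2 ± 5.74 to 39.0 ± 10.1 CPM (1.34 ± 0.262, adjusted p = 0.000152). The ATP synthase g subunit gene asg-1 rose from 120 ± 15.1 to 312 ± 39.9 CPM in males (1.38 ± 0.277, adjusted p = 0.000208) and from 169 ± 35.4 to 385 ± 49.5 CPM in hermaphrodites (1.19 ± 0.274, adjusted p = 0.000513). With DESeq2 size factors in place of TMM, 4 members in place of 7 were called in males, with gas-1, cox-15 and sdha-2 at 0.995, 0.98 and 0.94, and the background split moved to 8.21% rising and 10.85% falling.

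In hermaphrodites ucr-2.3, sdha-2 and cox-15 led the step. The libraries held 0, 1, 2 and 4 UMIs of ucr-2.3 in L1 males and 4, 9, 3 and 3 in L1 hermaphrodites, so its fold changes from L1 rest on few counts. Its log2 fold change to L2 was 2.76 ± 0.582 in males and 2.72 ± 0.472 in hermaphrodites (adjusted p = 0.000374 and 1.19e-05). Its mean CPM at L2 was 2.91 and 2.79. The sdha-2 gene, 1 of 2 genes for the flavoprotein of complex II, rose in hermaphrodites from 4.40 ± 2.09 to 14.6 ± 2.57 CPM (1.72 ± 0.312, adjusted p = 2.28e-05). The log2 fold change of cox-15 was 1.18 ± 0.263 (adjusted p = 0.00037), and 0.99 without L1 hermaphrodite replicate 2.

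The middle steps moved few members. From L2 to L3, 0 members were called in either direction in males (background 12.9%, with 3 at an unadjusted p under 0.05, and 0 by DESeq2), while in hermaphrodites ucr-2.3 rose (1.57 ± 0.386, adjusted p = 0.00361, background 7.99%) and 0 fell (2.31%). From L3 to L4, 0 rose (15.6%) and 0 fell (9.88%) in males by edgeR, against 1 and 5 at an unadjusted p under 0.05 and 1 and 0 by DESeq2. Over the same step in hermaphrodites ucr-2.3 rose again (1.70 ± 0.355, adjusted p = 0.000198), as did lpd-5 (2.42 ± 0.735, adjusted p = 0.00937), against a background of 15.9%, and 0 fell (7.71%). The lpd-5 call was lost without L4 hermaphrodite replicate 3 (adjusted p = 0.0655).

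At the step from L4 to YA the counts of called members differed between the sexes. In males sdha-2 was the 1 member called as rising, from 24.9 ± 2.66 to 57.5 ± 8.16 CPM (1.21 ± 0.295, adjusted p = 0.00151, background 10%), and 0 members fell (12.5%). In hermaphrodites 2 rose (background 20.9%) and 11 fell (35.5%, background 23.6%). Without YA hermaphrodite replicates 1 and 4, 6 rose and 12 fell, against 18.96% and 28.6% of all genes. Without replicates 2 and 3, 3 rose and 7 fell, against 14.1% and 18.7%. The difference between the sexes at this step was tested only as part of the interaction over all stages.

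Falls that held in both of these fits were those of gas-1, ucr-1, ucr-2.2, atp-3 and isp-1. These fits share the L4 libraries, which were also those of the sex comparison at L4. The level of gas-1 fell from 233 ± 33.3 CPM at L4 to 60.8 ± 15.8 at YA (log2 fold change -1.94 ± 0.194, adjusted p = 9.24e-11), and each YA library, at 38.4 to 75.3 CPM, was below each L4 library, at 186 to 259. That of ucr-1 fell from 679 ± 136 to 157 ± 57.1 CPM (-2.12 ± 0.215, adjusted p = 1.38e-10). The Rieske gene isp-1 fell from 503 ± 168 to 144 ± 46.3 CPM (-1.81 ± 0.339, adjusted p = 2.34e-05). For ucr-2.2 the log2 fold change was -1.24 ± 0.158 (adjusted p = 2.06e-08), and for atp-3 it was -1.70 ± 0.269 (adjusted p = 1.49e-06). In males gas-1 stood at 99.0 ± 7.20 CPM at L4 and 105 ± 5.39 at YA.

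The copper chaperone gene cox-17 rose from L4 to YA in hermaphrodites (1.27 ± 0.219, adjusted p = 5.71e-06), and did so in both fits, at 1.44 and 1.08. The rise of atp-6 (2.26 ± 0.487, adjusted p = 0.000157) was 0.57 (adjusted p = 0.335) without replicates 1 and 4. The remaining falls, of nuo-4, mev-1, atp-4, sdhd-1, ucr-2.3 and lpd-5, lost the call in 1 of the 2 fits. For nuo-4 the log2 fold change was -0.97 (adjusted p = 0.00596) and -1.27 in these fits, so that its loss came at the fold threshold. For sdhd-1 it was -2.83 and -0.23, and for atp-4 it was -4.10 and -0.78.

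Of the genes known from mutants, the levels of mev-1 lay between 96.9 and 173 CPM in every group but the YA hermaphrodites, at 63.04 ± 48.3. The lowest and highest group means of atp-2 were 2081 ± 472 CPM in L1 males and 3847 ± 391 in L3 hermaphrodites, and it was called in no step by the 3 thresholds. The clk-1 gene, which encodes an enzyme of ubiquinone synthesis and is no member, had a log2 fold change of 1.45 ± 0.423 between L4 males and L4 hermaphrodites (adjusted p = 0.00616), at 4.75 and 1.74 CPM.

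Several subunits are encoded by more than 1 gene, and the share that each gene took of the UMIs of its set needs no scaling factor. Shares were compared between the sexes at each stage by exact two-sided permutation tests of 4 against 4 libraries, for which the smallest possible p is 0.0286. With 40 tests, none of the adjusted p-values fell below 0.0816, so that no share was called. In 14 of the 40 comparisons the libraries of the sexes did not overlap, which is the outcome with that smallest p. Shares of 1 set depend on each other, as for ucr-2.1 and ucr-2.2 at L2, L3 and L4, so the 14 are not independent. Some of these are given below as values.

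The complex II flavoprotein showed a developmental shift in both sexes. The share of sdha-2 in the UMIs of sdha-1 and sdha-2 was 1.57% ± 0.137 in L1 males and 0.915% ± 0.321 in L1 hermaphrodites (SD, n = 4). In males it was 4.13%, 7.44% and 11.1% at L2, L3 and L4, and in hermaphrodites 5.51%, 9.97% and 20.4%. The L4 libraries did not overlap, at 9.99% to 12.4% in males and 18.9% to 22.7% in hermaphrodites (exact permutation p = 0.0286, adjusted p = 0.0816). At YA the share was 20.3% ± 1.13 in males and 26.4% ± 8.30 in hermaphrodites, from 17.9% to 37.8%.

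For the core subunit of complex III, ucr-2.1 took most UMIs in every group, between 63.9% and 81.4%. Its share in males and hermaphrodites was 74.1% and 68.0% at L2 and 74.6% and 68.8% at L3. At L4 it was 63.9% in hermaphrodites and 10.07 percentage points higher in males, and the libraries did not overlap at these 3 stages. The share of ucr-2.2 was 19.4% and 18.6% in L1 males and hermaphrodites, then 25.5% and 31.6% at L2, 24.8% and 30.1% at L3 and 24.7% and 31.8% at L4, where the sexes did not overlap at any of the 3 later larval stages. The antisense gene col-41 covers 1450 bases of ucr-2.2, and the strand setting of the counting was not given in the sources used here, so their reads may not be told apart. The third gene, ucr-2.3, took 0.0535% and 0.0582% at L1 and 1.27% and 4.28% at L4.

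For the g subunit of the ATP synthase, the share of asg-2 was lower at later stages while its own level showed no such course. Group means of asg-2 lay between 327 CPM, in L1 males, and 600.4 CPM, in L3 hermaphrodites, and those of asg-1 between 120 CPM, in L1 males, and 704 CPM, in L4 hermaphrodites. The asg-2 share was 73.2% ± 1.64 in L1 males and 77.4% ± 1.13 in L1 hermaphrodites, 59.7% and 53.6% at L2, and 49.5% ± 4.05 and 42.8% ± 1.11 at L4, without overlap at these 3 stages. At YA it was 45.5% ± 1.05 in males but 50.4% ± 20.9 in hermaphrodites, where the libraries ran from 32.2% to 71.7%. Of the b subunit, asb-2 took nearly all UMIs. The share of asb-1 was 0.0398% and 0.0375% in L1 males and hermaphrodites, 0.31% and 0.224% at L4 and 0.223% and 0.322% at YA, from 191 asb-1 UMIs over all 40 libraries.

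**Figure D5:**
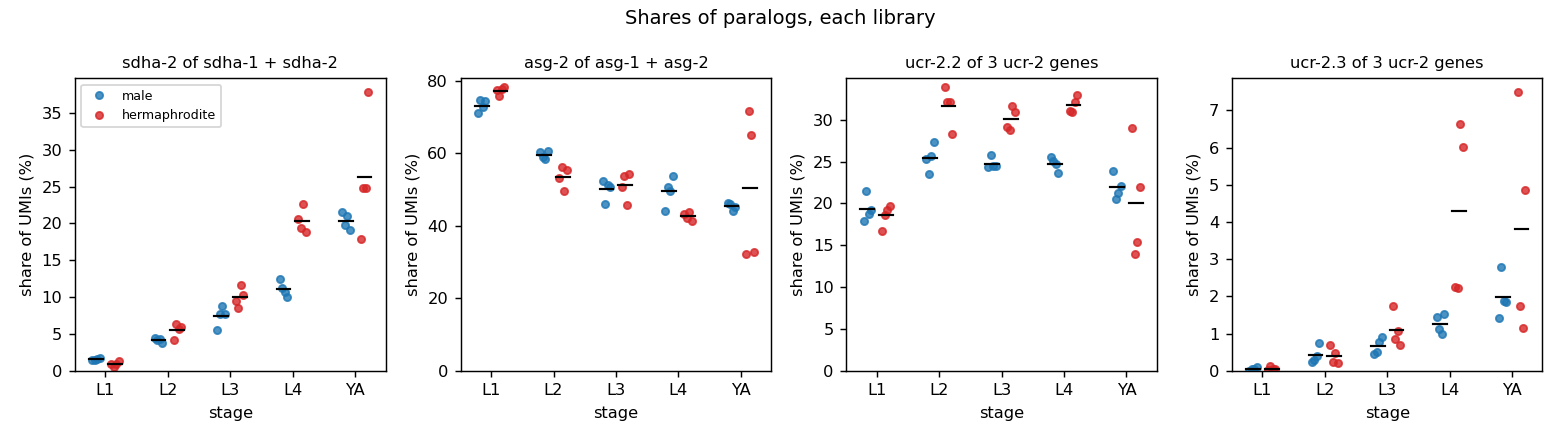
Share of the UMIs of a paralog set (y axis, percent) held by sdha-2, asg-2, ucr-2.2 and ucr-2.3 by stage (x axis) in each library, males in blue and hermaphrodites in red, black bars marking means of 4 libraries. The sdha-2 share went from 1.57% and 0.915% at L1 to 20.3% and 26.4% at YA in males and hermaphrodites, and the asg-2 share from 73.2% and 77.4% to 45.5% and 50.4%.

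The same was asked of a paralog set outside the member list. Of the cytochrome c genes, which carry electrons from complex III to complex IV, cyc-2.2 had 0 UMIs in all 16 L1 and L2 libraries, which allows a share of up to 0.154% in the smallest of them at 3 counts, and reached 0.188% ± 0.032 of the UMIs of cyc-2.1 and cyc-2.2 in YA males. In YA hermaphrodites it was 0.123% ± 0.102, with replicate 1, at 0.244%, above every YA male library.

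Other genes of the pathway were counted from lists that hold no member. Of 11 further genes of the mitochondrial genome, all tested, 6 rose and 0 fell from L4 to YA in males, and 9 rose and 0 fell in hermaphrodites, against 10% and 20.9% of all genes rising. The median log2 fold changes were 1.18 and 1.77 (all genes, -0.05 and -0.02). The count in hermaphrodites depended on the YA libraries. Without replicates 1 and 4, 0 rose and 1 fell, at a median of 0.30 (18.96% and 28.6% of all genes). Without replicates 2 and 3, 11 rose, at a median of 2.502 (14.1% of all genes). In males 6 and 8 rose in the same 2 fits, against 9.83% and 13.4% of all genes. Summed with atp-6, these genes read 224 ± 21.3 CPM in YA males and 571, 110, 126 and 443 CPM in YA hermaphrodite replicates 1 to 4, so the hermaphrodite libraries split here as for the members. Between the sexes edgeR called 0 of the 11 at any stage with all libraries, with 5 at L1 and 1 at YA lower in males at an unadjusted p under 0.05. At YA, 6 were called higher in males without hermaphrodite replicates 1 and 4 (26.4% of all genes). Without replicates 2 and 3, 3 were called higher in hermaphrodites (11.4% of all genes).

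The rule used current symbols only where the table did, and 8 genes whose current symbol would meet it are listed under sequence names, among them the complex IV subunit genes cox-4 and cox-6C and the ATP synthase alpha subunit gene atp-1. Of these 8, only cox-18 (listed as Y55F3AR.1) was called between the sexes, higher in L4 hermaphrodites (-1.28 ± 0.515, adjusted p = 0.0434). Of 15 other tested complex I genes, 1 was called higher in L4 hermaphrodites (background 14.1%) and 1 in each direction at YA (background 22.3% in males and 21.8% in hermaphrodites). Without YA hermaphrodite replicates 1 and 4, 5 were called higher in YA males and 3 in hermaphrodites, against 26.4% and 20.2% of all genes. Without replicates 2 and 3 they were 0 and 4, against 24.6% and 11.4%. Of 15 other genes of complexes III to V, 3 were called higher in hermaphrodites at L1 (background 2.92%), 2 at L4 (14.1%) and 3 at YA (21.8%). The last count was 4 and 2 in the same 2 fits, against 20.2% and 11.4% of all genes.

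Among the latter were the ATP synthase epsilon subunit gene hpo-18, at 872 ± 155 CPM in YA males and 2622 ± 699 in YA hermaphrodites (-1.59 ± 0.233, adjusted p = 2.91e-07), and mai-2, an ATPase inhibitor gene, at 1659 ± 260 and 3630 ± 1334 CPM (-1.13 ± 0.201, adjusted p = 8.47e-06). The log2 fold change of hpo-18 was -1.49 and -1.39 without either pair of hermaphrodite libraries, and that of mai-2 was -1.52 without replicates 1 and 4 and -0.30 (adjusted p = 0.202) without replicates 2 and 3. The ADP/ATP carrier gene ant-1.1, whose product exchanges ATP for ADP across the inner membrane, went the other way at YA. It read 3971 ± 87.1 CPM in males and 1560 ± 1062 in hermaphrodites (1.35 ± 0.253, adjusted p = 1.98e-05). The hermaphrodite libraries of ant-1.1 ran from 598 to 2840 CPM, and its log2 fold change was 2.53 without replicates 1 and 4 and 0.9998, just under the fold threshold, without replicates 2 and 3.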

How the data were processed

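The authors deposited a table of raw UMI counts per gene for 40 bulk MARS-seq libraries, a method that tags the 3′ ends of transcripts. Per the paper's methods, reads were trimmed with cutadapt, mapped to WBcel235 with STAR 2.4.2a and counted with HTSeq after duplicates were marked. The table also holds the authors' normalized and batch-corrected values and the results of their comparisons (fold changes, p-values), all left unused.

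Counts were fitted with edgeR 4.0.16 in R 4.3.3 (quasi-likelihood test, TMM scaling, 10 group means over 40 libraries, low counts removed by filterByExpr at min.count 10 and min.total.count 15). P-values were adjusted by Benjamini-Hochberg over 8110 genes. Each gene had 1 estimate of its spread, shared by all 10 groups. Standard errors were derived from the log2 fold change and the F statistic. The fit was tested on simulated data, drawn with 1 spread per gene for all libraries. Such data lack the split of the YA hermaphrodite libraries, so they do not test the YA calls under that split. DESeq2 1.42.0 was an alternative. Library totals of 1724365 to 14129759 UMIs limit the precision of low genes.

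Members and lists were chosen with earlier results of these data known. Named genes were all members called between the sexes, up to 3 called members per step and direction with the smallest p, genes of the paralog sets, genes known from mutants, and up to 3 called genes of other lists. Members named outside this rule (sdhb-1, cyc-1, atp-5 and others) were picked after their values were seen. At L1, same-numbered replicates of the sexes deviated together, with correlations of 0.136 to 0.587 over genes. The correlation was highest with the own number for replicates 1, 3 and 4 but not for replicate 2. Numbers were read as pairs at no other stage. The main fit used no pairing, and the replicate as a block was an alternative fit. No 2 libraries of a group agreed within sampling noise (chi-square per degree of freedom at least 2.29). The shares of 1 paralog set are not reported here. No sequences are shown. Gene positions are from the Ensembl WBcel235 annotation.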

Additional observations from a re-analysis of the deposited data

Results flagged for a closer look

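The groups of 4 libraries were screened for a library far from the others by Dixon's ratio, the gap to the nearest library over the whole range. Chance flags about 1 in 20 groups, and of 88 groups screened 7 were flagged. The sum of all members includes complex V, so their flags are not independent. The summed level of all members was set apart by L1 male replicate 1 (10320 CPM, ratio 0.851) and L1 hermaphrodite replicate 1 (15300 CPM, ratio 0.934). The same libraries stood apart for complex V, at 6833 CPM (ratio 0.894) and 9913 CPM (ratio 0.899). These sums are after TMM scaling. The members' share of the UMIs was 1.39%, 1.22%, 1.26% and 1.19% in L1 male replicates 1 to 4. In the L1 hermaphrodites it was 1.79%, 1.61%, 1.53% and 1.47%. Replicate 1 was thus also the highest by share, but closer to the others than in CPM. Complex I was set apart in L3 male replicate 2 (806.8 CPM, ratio 0.873), complex II in L2 male replicate 4 (941 CPM, ratio 0.915) and complex III in YA male replicate 2 (1259 CPM, ratio 0.891).

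The sex difference changed with stage, by edgeR's F test of the interaction, for 13 members. Adjusted p-values were 2.33e-06 for gas-1, 2.93e-06 for ucr-1, 1.05e-05 for cox-17, 0.000399 for atp-3, 0.00109 for mev-1, 0.00157 for nuo-4 and 0.00172 for cox-15. They were 0.00291 for asg-2, 0.00469 for ucr-2.2, 0.00972 for atp-4, 0.0115 for sdhd-1, 0.0135 for ucr-2.3 and 0.0444 for isp-1.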

How the results depend on the processing

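Depth limits the low genes, such as asb-1, nuo-6 and cox-10. The spread of the YA hermaphrodite libraries limits every comparison with that group. The main fit shares 1 estimate of the spread per gene over all groups, so that spread also enters the tests at the other stages. Counts of called members that moved by over 1.5 times were as follows, and the cause was not tested. For the sexes, males higher at YA was 1 with each stage fitted alone and 8 without YA hermaphrodite replicates 1 and 4, and hermaphrodites higher at L1 was 1 without the L1 libraries of replicate 1. In males, rises from L1 to L2 were 4 with DESeq2 size factors and 4 with the DESeq2 test, rises from L3 to L4 were 1 with the DESeq2 test and 1 without the L1 libraries of replicate 1, falls from L3 to L4 were 1 with upper-quartile scaling, and rises from L4 to YA were 2 without YA hermaphrodite replicates 2 and 3. In hermaphrodites, falls from L1 to L2 were 1 in each of 5 fits (DESeq2 size factors, DESeq2 test, without either YA pair, without the L1 libraries of replicate 1), and rises from L2 to L3 were 0 with thinned counts. Falls from L3 to L4 were 2 with upper-quartile scaling and 1 without the L1 libraries of replicate 1. From L4 to YA, rises were 6 without YA hermaphrodite replicates 1 and 4, and falls were 7 without replicates 2 and 3. The interaction count was 23 and 22 without either pair. The sex difference of atp-6 at YA reversed to 0.49 without replicates 1 and 4. The fit without replicates 2 and 3 was chosen after seeing the data.

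Leaving out 1 library at a time gave 0 to 1 members higher in L1 hermaphrodites, 0 to 1 rising from L3 to L4 in males, 0 to 1 falling from L1 to L2, 1 to 2 rising and 0 to 1 falling from L3 to L4, and 2 to 4 rising and 8 to 11 falling from L4 to YA in hermaphrodites. Calls lost in these fits included sdhd-1 at YA without hermaphrodite replicate 2 (0.81) or 3 (0.82) and isp-1 from L1 to L2 in hermaphrodites without replicate 4 (0.99). The replicate block changed none of the 29 counts by over 1.5 times, and 40 of 43 calls of named genes held under it. The 3 lost were atp-6 at YA (-0.81) and lpd-5 at L4 (-1.31) and from L4 to YA (-1.80).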
